A study of Rattus norvegicus with 6 samples.

Results

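The 10 genes described here encode proteins that esterify cholesterol and diacylglycerol, coat the resulting lipid droplets, load neutral lipid onto lipoproteins and release fatty acids from stored triglyceride. They are Soat1, Soat2, Dgat1, Dgat2, Mttp, Plin2, Plin3, Plin5, Cideb and Pnpla2, listed by symbol with earlier results of these data known. Of the 10, 8 had a named probe set on the array, among 15037 genes measured in all, and each of the 8 was represented by 1 probe set. Plin3, which coats small droplets, and Cideb, which acts in lipoprotein lipidation, had no probe set of that name and were not analysed here.

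Expression was measured on 6 Affymetrix arrays of primary hepatocytes, the parenchymal cells of the liver, isolated from male Sprague-Dawley rats aged 8 weeks and plated on collagen. Control cells were left untreated (n = 3 arrays). The other cells received 50 µM trimethylamine N-oxide (TMAO) for 30 h (n = 3 arrays). The labels give no such time for the Control cells. TMAO is formed in the liver by oxidation of trimethylamine, a product of gut microbes. The labels call the arrays biological repeats and do not say whether each came from a separate animal or isolation, so the p-values measure only the spread between these arrays.

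A liver cell stores surplus cholesterol and fatty acids as neutral esters. Sterol O-acyltransferases (Soat1 and Soat2) join cholesterol to a fatty acid, and diacylglycerol acyltransferases (Dgat1 and Dgat2) complete triglyceride. Both esters are made in the membrane of the endoplasmic reticulum (ER) and either bud into the cytosol as droplets coated by perilipins (Plin genes) or are packed into very-low-density lipoprotein (VLDL) with the help of the microsomal transfer protein encoded by Mttp. Adipose triglyceride lipase, the product of Pnpla2, starts the breakdown of stored triglyceride.

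Soat2 had the largest difference of the 8 measured genes, with a mean signal 2.06-fold higher under TMAO, and the other 7 differed by no more than 0.19 on the log2 scale in either direction. Every value below is the log2 signal that the authors deposited, and a difference is TMAO minus Control. In the limma fit of all 15037 genes, 0 of the 8 passed an adjusted p of 0.05 (Benjamini-Hochberg), a threshold that 0.0266% of all genes passed. At an unadjusted p under 0.05, 1 of the 8 passed, against 5.49% of all genes. In 1 of the 8 the groups did not overlap, against 10.8% of all genes (5.51% higher and 5.33% lower under TMAO). At least 1.5-fold in either direction separated the groups for 1 of the 8 and for 0.698% of all genes. Each of these single genes was Soat2.

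The arrays were alike in overall level, with medians between 5.53 and 5.61 over all probe sets. Of 9 measured hepatocyte markers 3 had a higher and 6 a lower mean under TMAO. Their median difference was -0.080, and 0 passed an unadjusted p of 0.05 in limma. Albumin (Alb) averaged 11.89 in Control and 11.92 under TMAO, and Hnf4a, a liver transcription factor, 7.17 and 6.89. Fgb, a fibrinogen chain whose groups did not overlap, averaged 10.11 and 9.83. Tat, another of these markers, averaged 8.48 and 8.79 with overlapping groups, a difference of 0.31 ± 0.16 (SE). Cps1, of the urea cycle, was near the negative control probe sets (4.85 and 5.12). A principal component analysis of all genes set TMAO replicate 3 apart (30.8% of the variance along that axis). This array gave the highest signal of 3 of the 8 genes (Soat2, Plin2 and Pnpla2) and the lowest of 2 (Dgat1 and Mttp). Its effect is given beside the results it moved most.

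Soat2 encodes the sterol O-acyltransferase of hepatocytes and enterocytes, which makes cholesteryl esters that are packed into lipoproteins. Its signal was 4.84, 4.64 and 4.98 on Control replicates 1, 2 and 3. On TMAO replicates 1, 2 and 3 it was 5.49, 5.52 and 6.57. All 3 TMAO arrays lay above all 3 Control arrays, with a gap of 0.51 between the nearest values, and replicate 3 was the highest array of each group. The means were 4.82 ± 0.17 in Control and 5.86 ± 0.62 under TMAO (SD, n = 3). The difference was 1.04 ± 0.26 (SE), with a 95% interval from 1.37-fold to 3.11-fold. By limma its unadjusted p was 0.00317 and its adjusted p was 0.575, and 82 of the 15037 genes had a smaller p. Without TMAO replicate 3 the difference was 0.69 ± 0.13 (SE), with an unadjusted limma p of 0.00102 and an adjusted p of 0.591.

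The Soat2 signal was low on this array. Its Control mean lay 0.85 above the median of the 1153 negative control probe sets, which was 3.96, and its TMAO mean lay 1.90 above it. On the Control arrays 63.8% to 72.8% of the negative controls had a lower signal than Soat2, and on the TMAO arrays 80.5% to 91.8% did. The size of a fold change this near background is uncertain.

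Soat1 encodes the related enzyme found in most cell types, abundant in macrophages and steroid-producing cells. Its signal was 7.51, 7.59 and 7.19 on Control replicates 1, 2 and 3 and 7.79, 7.55 and 7.51 on the TMAO replicates. The groups overlapped, and only TMAO replicate 1 lay above every Control array. The difference was 0.19 ± 0.14 (SE), with a limma adjusted p of 0.963 and a 95% interval from 0.91-fold to 1.42-fold. With 1 array left out it ran from 0.068 (without Control replicate 3, the lowest array) to 0.27 (without Control replicate 2).

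Whether the paired enzymes responded unequally was asked of the difference between them within each array, which compares changes and not levels. Soat2 minus Soat1 shifted by 0.86 ± 0.47 (SE, n = 3 per group) between Control and TMAO, and its exact permutation test over arrays gave p = 0.2 (two-sided) and an adjusted p of 0.6 over the 3 contrasts that could be made. The smallest p that 3 against 3 arrays allow is 0.1, so no contrast could pass 0.05. The values ran from -2.94 to -2.21 in Control and from -2.30 to -0.94 under TMAO, and TMAO replicate 1 fell within the range of Control. Without TMAO replicate 3 the shift was 0.45. An unequal response of Soat2 and Soat1 was thus not shown at this number of arrays.

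**Figure D1:**
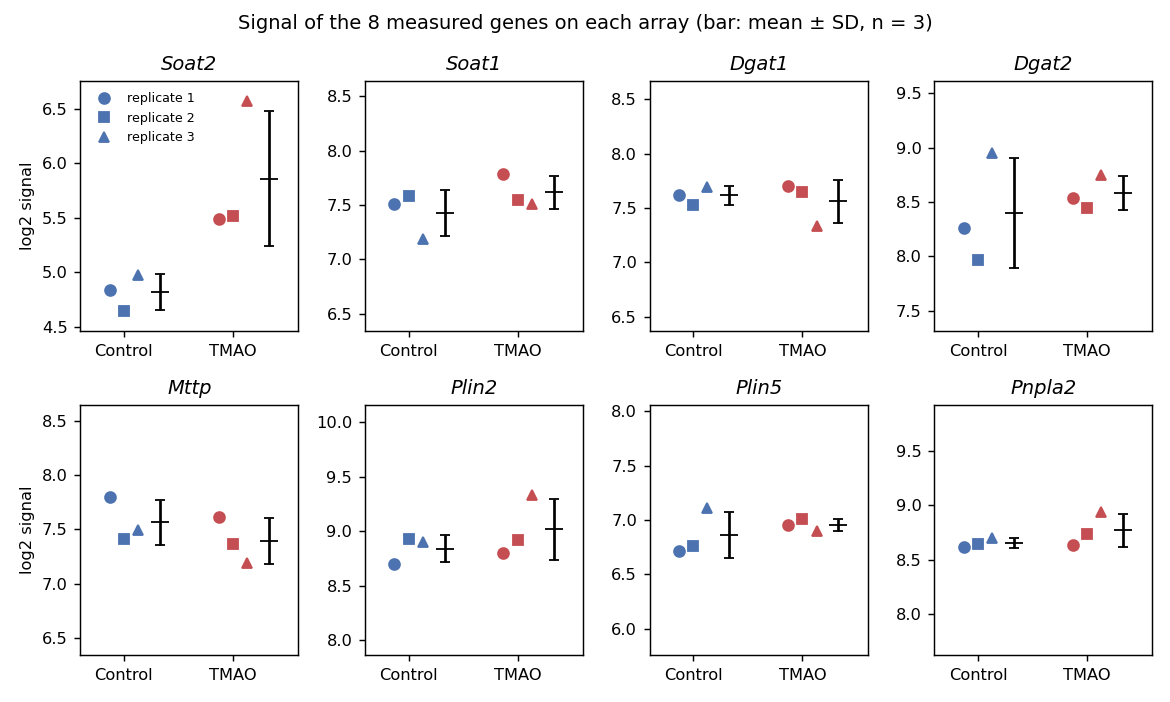
Log2 signal (vertical axes, each spanning 2.3 units) of the 8 measured genes on the 3 Control arrays (blue) and the 3 TMAO arrays (red), with the marker shape giving the replicate number and the black bar the mean ± SD. The TMAO arrays lie above all Control arrays for Soat2, and the groups overlap for the other 7 genes.

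The acyltransferases of triglyceride synthesis differed by less than their spread. Dgat1 encodes an ER enzyme related in sequence to the sterol acyltransferases. Its signal was 7.62, 7.53 and 7.70 on the Control replicates and 7.70, 7.65 and 7.33 on the TMAO replicates. TMAO replicate 3 was the lowest array, TMAO replicate 2 fell within the Control range and TMAO replicate 1 lay just above it. The difference was -0.057 ± 0.13 (SE), with a limma adjusted p of 0.997, and with 1 array left out it ran from -0.13 (without TMAO replicate 1) to 0.058 (without TMAO replicate 3). Dgat2 encodes an unrelated enzyme with the same activity, known to use newly made fatty acids. Its signal was 8.26, 7.97 and 8.95 on the Control replicates, the widest Control spread of the 8 genes, and 8.54, 8.45 and 8.75 on the TMAO replicates. All TMAO values fell inside the Control range. The difference was 0.18 ± 0.23 (SE), with a limma adjusted p of 0.988. Leaving out Control replicate 3 gave 0.46, at an unadjusted limma p of 0.0145, and leaving out Control replicate 2 gave -0.029. Dgat2 minus Dgat1 shifted by 0.24 ± 0.32 (SE, n = 3 per group), with p = 0.5 by the exact permutation test and an adjusted p of 0.75.

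Mttp, whose product transfers triglyceride and cholesteryl ester to nascent apolipoprotein B, had a lower mean under TMAO. Its signal was 7.80, 7.41 and 7.49 on the Control replicates and 7.62, 7.37 and 7.19 on the TMAO replicates. The groups overlapped, with Control replicate 1 the highest array and TMAO replicate 3 the lowest. The difference was -0.17 ± 0.15 (SE), with a limma adjusted p of 0.969. It came to -0.058 without Control replicate 1 and -0.073 without TMAO replicate 3, and to -0.29 without TMAO replicate 1.

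Among the droplet coat proteins, Plin2, the constitutive perilipin of hepatocyte droplets, had signals of 8.70, 8.93 and 8.90 on the Control replicates. On the TMAO replicates it had 8.80, 8.92 and 9.33. Only TMAO replicate 3 lay above the Control range. The difference was 0.18 ± 0.15 (SE), with a limma adjusted p of 0.971, or 0.019 without TMAO replicate 3 and 0.28 without TMAO replicate 1. Plin5, which tethers droplets to mitochondria in oxidative tissues, had 6.71, 6.76 and 7.11 on the Control replicates and 6.95, 7.01 and 6.90 on the TMAO replicates. All TMAO values lay below Control replicate 3 and above the other Control arrays. The difference was 0.093 ± 0.13 (SE), with a limma adjusted p of 0.994. Leaving out Control replicate 3 gave 0.22, and leaving out Control replicate 1 or 2 gave 0.019 or 0.044. Plin2 minus Plin5 shifted by 0.082 ± 0.21 (SE, n = 3 per group), with p = 0.8 by the exact permutation test and an adjusted p of 0.8.

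Pnpla2, the lipase gene, varied least in Control, with 8.61, 8.65 and 8.70. On the TMAO replicates it had 8.64, 8.74 and 8.94. TMAO replicates 2 and 3 lay above the Control range and replicate 1 inside it. The difference was 0.12 ± 0.12 (SE), with a limma adjusted p of 0.978, or 0.034 without TMAO replicate 3 and 0.18 without TMAO replicate 1.

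The intervals show how large a difference these arrays leave possible. For 6 of the 7 genes other than Soat2 the 95% interval lay within 1.5-fold in both directions, and for all 7 it lay within 2-fold. Dgat2 had the widest, from 0.80-fold to 1.62-fold. All 7 differences fell inside the range that holds the central 95% of all 15037 genes, from -0.32 to 0.35. The median difference of the 8 genes was 0.15, against -0.0035 for all genes, and 6 of the 8 had a higher mean, against 49% of all genes.

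**Figure D2:**
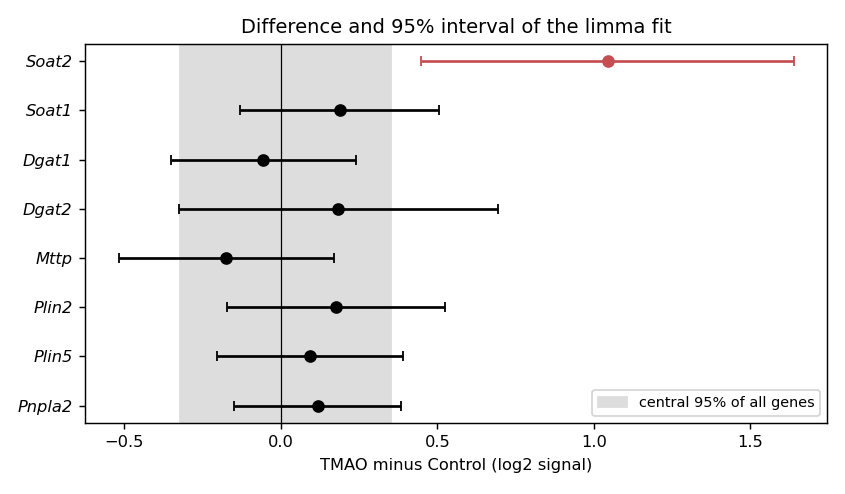
Difference between TMAO and Control (horizontal axis, log2 signal) for each of the 8 genes, with its 95% interval from the limma fit, over a grey band that holds the central 95% of the differences of all genes. Soat2 lies outside the band at 1.04, and the other 7 genes lie inside it with intervals that cross 0.

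The wider pathway was described with lists of genes assembled with earlier results of these data in view, so their counts are descriptions. In the glycerolipid synthesis list, which runs from acylation of glycerol phosphate to triglyceride, all 19 genes were measured, 11 with a higher and 8 with a lower mean, and the median difference was 0.025. At an unadjusted p under 0.05, 1 was higher (3.01% of all genes were) and 1 was lower (2.48%). The higher one was Gpat3, an ER acyltransferase of the first step. Its signal was 4.92, 4.54 and 5.18 on the Control replicates and 5.67, 5.75 and 5.94 on the TMAO replicates, without overlap. The Gpat3 difference was 0.91 ± 0.17 (SE), with a limma adjusted p of 0.251, and 0.83 without TMAO replicate 3. Its Control mean of 4.88 was also less than 1 log2 unit above the negative controls. The lower one was Lpin2, a phosphatidate phosphatase of liver, with a difference of -0.27 ± 0.11 and a limma adjusted p of 0.909. Gpam, the mitochondrial acyltransferase of the same first step, differed by -0.13 ± 0.14, and Plpp1, a lipid phosphatase, by 0.19 ± 0.16.

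In the droplet coat and biogenesis list 17 of 22 genes were measured, 9 with a higher and 8 with a lower mean, the median difference was 0.0015, and 0 passed even an unadjusted p of 0.05 in limma. Acsl3, an acyl-CoA synthetase that sits on nascent droplets, differed by 0.27 ± 0.16 without overlap, and Hsd17b11, a droplet-associated dehydrogenase, by -0.20 ± 0.11 without overlap. Ldaf1, a partner of seipin in droplet assembly, differed by -0.21 ± 0.12, and Hsd17b13, a hepatocyte droplet protein, by -0.14 ± 0.12. Of the neutral lipid hydrolysis list 12 of 16 genes were measured, 5 higher and 7 lower, with a median of -0.016, and 0 passed an unadjusted p of 0.05 in limma. Nceh1, a neutral cholesteryl ester hydrolase, differed by 0.33 ± 0.19, and Lipe, hormone-sensitive lipase, by -0.45 ± 0.21 at signals near the negative controls. Aadac, a microsomal esterase, differed by -0.14 ± 0.13, at mean signals (4.73 and 4.59) less than 1 log2 unit above the negative control median. Abhd5, the activator of the Pnpla2 lipase, and G0s2, its inhibitor, differed by -0.015 ± 0.11 and 0.039 ± 0.14.

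In the VLDL assembly and export list 11 of 14 genes were measured, 6 higher and 5 lower, with a median of 0.074. In limma 1 passed an unadjusted p of 0.05, against 5.49% of all genes. It was Apoc3, a plasma apolipoprotein that inhibits lipoprotein lipase, at -0.44 ± 0.16 with a limma adjusted p of 0.859, and it came to -0.28 without Control replicate 3. Lman1, a cargo receptor of the secretory pathway, differed by 0.31 ± 0.15, Surf4, another cargo receptor, by -0.23 ± 0.17, and P4hb, the smaller subunit of the transfer protein complex and a disulfide isomerase, by 0.16 ± 0.11 without overlap. Apob, the structural protein of VLDL, differed by -0.085 ± 0.17. In the fatty acid activation and uptake list 12 of 13 genes were measured, 6 higher and 6 lower, and 0 passed an unadjusted p of 0.05 in limma. Dbi, an acyl-CoA binding protein, differed by -0.19 ± 0.12, and Acsl4, an acyl-CoA synthetase that prefers arachidonate, by 0.15 ± 0.11. Fabp1, the liver fatty acid binding protein, had signals below the negative control median in both groups (3.58 and 3.20), and no difference is read from them.

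Plin2 and Plin5 are known targets of the PPAR nuclear receptors, so genes of that programme were set beside them. Of 14 listed genes 13 were measured, 5 higher and 8 lower, with a median of -0.083. At an unadjusted p under 0.05 in limma, 2 were higher (3.01% of all genes were) and 2 were lower (2.48%). Acot1, a cytosolic acyl-CoA thioesterase, differed by 0.51 ± 0.12 (limma adjusted p of 0.499), and Fgf21, a secreted fasting hormone also induced by ER stress, by 1.82 ± 0.48 (limma adjusted p of 0.581). Cpt1a, the gatekeeper of mitochondrial fatty acid oxidation, differed by -0.35 ± 0.14 and Rxra, the partner receptor, by -0.27 ± 0.11. Fgf21 came to 1.17 without TMAO replicate 3, and Cpt1a to -0.24 without Control replicate 3. The Fgf21 signals of 5.20, 4.65 and 5.27 on the Control replicates were low, beside a negative control median of 3.96.

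**Figure D3:**
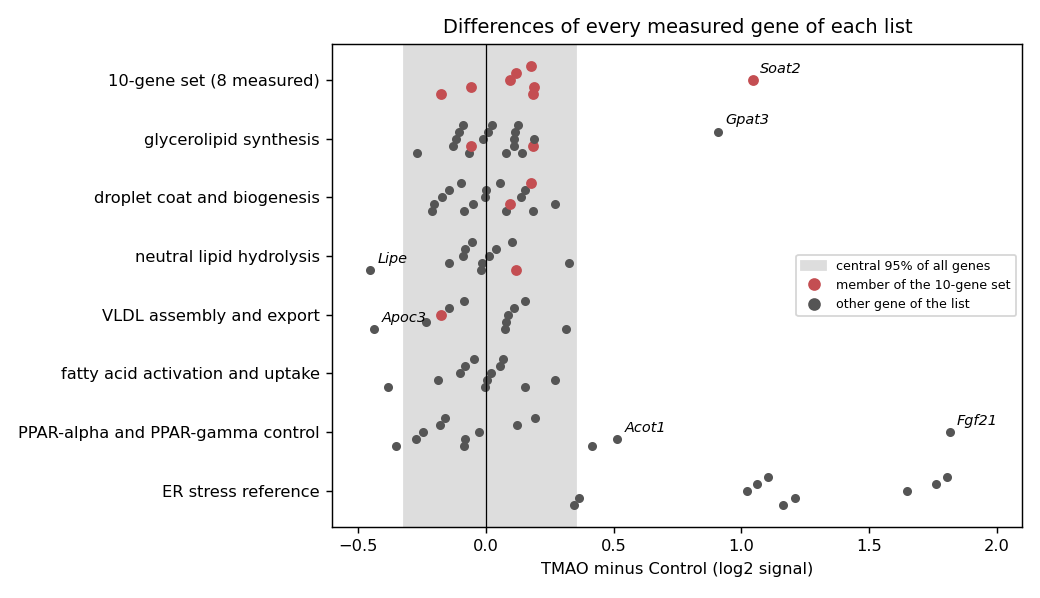
Difference between TMAO and Control (horizontal axis, log2 signal) of every measured gene in the 10-gene set and in 7 lists, with the genes of the set in red, the others in dark grey and a grey band for the central 95% of all genes. Genes beyond 0.42 in either direction are named, except in the ER stress list, where all 10 genes lie to the right of 0.

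The ER stress list was also drawn up with earlier results of these data known, so its counts only describe these arrays. Its 10 genes, such as the chaperone gene Hspa5, all had higher means under TMAO without overlap, as 5.51% of all genes did. Their median difference was 1.13. In limma 3 of them (Herpud1, Hspa5 and Vldlr) passed the adjusted threshold, against 0.0266% of all genes. Against the mean of all 6 arrays these genes averaged -0.53, -0.58 and -0.61 on Control replicates 1, 2 and 3, and 0.39, 0.42 and 0.91 on the TMAO replicates. Soat2 followed the same order among the TMAO arrays, lowest on replicate 1 and highest on replicate 3, but not among the Control arrays. Across the 6 arrays its Pearson correlation with that average was 0.94, and 0.95 without TMAO replicate 3, as a description of arrays that fall into 2 groups. For the other 7 genes it ran from -0.57 (Mttp) to 0.72 (Pnpla2).

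**Figure D4:**
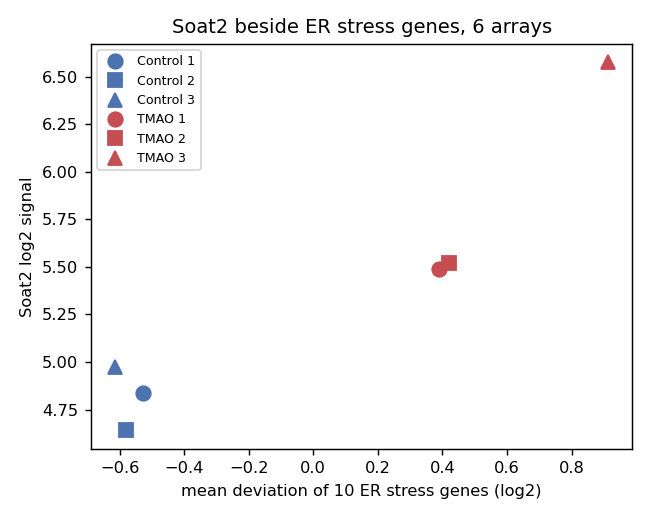
Soat2 log2 signal (vertical axis) against the mean deviation of the 10 ER stress genes from their own means (horizontal axis, log2) on each of the 6 arrays, Control in blue and TMAO in red, with the marker shape giving the replicate number. The Control arrays cluster at the lower left, TMAO replicates 1 and 2 lie between, and TMAO replicate 3 is highest on both axes.

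Among 7519 genes whose mean signal reached the median of all genes, the pattern over the 6 arrays most like that of Soat2 was that of Acot2, a mitochondrial acyl-CoA thioesterase, with a Pearson correlation of 0.997. The signal of Acot2 was 8.45, 8.30 and 8.71 on the Control replicates and 9.16, 9.14 and 10.07 on the TMAO replicates, a difference of 0.97 ± 0.24 with a limma adjusted p of 0.558. Without TMAO replicate 3 that difference was 0.67 and the correlation with Soat2 was 0.993. Next were Tp53inp1, a stress-induced regulator of p53 (0.991), and Casp4, an inflammatory caspase (0.991), at 0.973 and 0.964 without that array. With only 6 arrays, 278 genes correlated with Soat2 above 0.9. The genes most like Soat1, which had the second smallest p of the 8, were Nr5a2, a nuclear receptor of liver (0.995), Ubxn7 (0.989) and Or52x1, an olfactory receptor gene (0.981), with 65 of 7518 genes above 0.9.

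Macrophages are rich in Soat1 and stellate cells in lipid droplets, so their markers were examined. Of 13 macrophage markers 2 had a higher and 11 a lower mean under TMAO, while 49% of all genes had a higher mean. At an unadjusted p under 0.05 in limma 2 of the 13 were lower, as 2.48% of all genes were. These were Cd163 (-0.39 ± 0.13, without overlap) and Vsig4 (-0.37 ± 0.15, at signals near the negative controls). The median difference of the 13 macrophage markers was -0.12. The log2 of their summed signal ran from 9.98 to 10.18 in Control and from 9.83 to 9.96 under TMAO, without overlap, and 6 of the 13, among them the Kupffer cell gene Clec4f, averaged less than 1 log2 unit above the negative controls. Of 11 stellate cell markers 7 were lower, with a median of -0.023, a summed signal of 9.55 to 9.80 in Control and 9.33 to 9.65 under TMAO, and Lrat, which defines quiescent stellate cells, below the negative control median. The part of these cells in the Soat1 and Plin2 values was not tested. In a mixed culture a lower marker signal cannot separate fewer cells of a type from less RNA per cell.

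The bases just upstream of the transcription start are shown for Soat1, the relative of Soat2, and for Plin2, the main coat gene of hepatocyte droplets, from the RefSeq promoter table of build GRCr8, which held 6 of the 10 genes (Soat1, Plin2, Plin3, Plin5, Cideb and Pnpla2). Each run is 250 bases long, 5′ to 3′ on the strand of the gene and ends at the base before the start. Plin2 had 2 windows, and the one that holds a motif is shown. Capitals mark a CCAAT box in Soat1 and an E-box, CACGTG, in Plin2.
Soat1 (chr13:71147673-71147922, minus strand): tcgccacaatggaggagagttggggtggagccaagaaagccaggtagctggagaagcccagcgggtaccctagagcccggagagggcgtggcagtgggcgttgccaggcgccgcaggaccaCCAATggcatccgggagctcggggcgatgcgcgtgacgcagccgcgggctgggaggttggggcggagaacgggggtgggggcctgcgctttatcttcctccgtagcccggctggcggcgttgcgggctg
Plin2 (chr5:106229019-106229268, minus strand): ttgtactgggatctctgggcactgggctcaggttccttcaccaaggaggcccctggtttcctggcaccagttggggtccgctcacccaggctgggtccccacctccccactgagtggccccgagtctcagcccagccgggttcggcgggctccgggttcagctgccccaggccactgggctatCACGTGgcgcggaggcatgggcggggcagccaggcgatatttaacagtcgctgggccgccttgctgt

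These windows were searched on both strands for motifs known from ER stress and lipid control. The ER stress response element (by its name ERSE), the element TGATGNAA bound by ATF4 with C/EBP partners, the sterol-element letters TCACNCCAC and the PPAR response element were found in 0 of the 6 genes, and in 0.0657%, 3.4%, 0.974% and 0.0508% of all 33469 promoters of the table. The E-box was found in 1 of the 6, Plin2, 67 bases before its start, and in 5.59% of all promoters. CCAAT, which is also the first part of ERSE, was found in 3 of the 6 (Soat1, Plin3 and Plin5) and in 34% of all. Of the 10 ER stress genes, all with a window, the ERSE was in 1 (Hspa5) TGATGNAA in 2 (Herpud1 and Trib3), the E-box in 2 and CCAAT in 7. The shares of all promoters count windows, and the 6 genes had 7. No window was available for Soat2, Dgat1, Dgat2 or Mttp, so the search says nothing of them. A missing match says only that these letters are not in this window.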

How the data were processed

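RNA from 3 Control and 3 TMAO cultures was hybridised as biotin-labelled cRNA, per the labels' protocols. The log2 signals, 1 for each probe set on each array, were used as the authors deposited them. The submitters' processing notes name limma without a version or role, and how the authors corrected background, normalized arrays and summarised probes is not given in the sources used here. A further deposited table with 6 columns that no label ties to a sample was not used here. Of 24871 probe sets 1683 controls were left out, 15049 had 1 gene symbol and 8139 had none. The probe set of highest mean represented a gene, leaving 15037 genes.

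TMAO was compared with Control by limma 3.58.1 in R 4.3.3 (lmFit, eBayes, group as the only term, two-sided, Benjamini-Hochberg over all 15037 genes), and pairs of related genes by an exact permutation test. The fit was also run on simulated data of independent normal noise with added changes. That simulation had no outlying array and no background floor, so it does not speak to either. The named genes are the 10 of the set, up to 4 of each list by smallest unadjusted p, and 3 genes of most similar pattern for each of the 2 set members of smallest p. Alb, Apob, Abhd5, G0s2, Clec4f, Lrat, Trib3, Cps1 and Cidea were added after their values were seen. The members and lists were chosen with earlier results of these data known. Replicate numbers come from the titles. Deviations of same-numbered arrays from their group means correlated by 0.13, 0.10 and -0.01, and those of differently numbered arrays by -0.13 to 0.03. These values do not settle whether the arrays were paired. The labels state no pairing, so the main fit left it out. A fit with the replicate number as a block is given below. The number of arrays limits the precision.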

Additional observations from a re-analysis of the deposited data

How the results depend on the processing

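With each alternative setting 0 of the 8 genes passed the adjusted threshold, and leaving out 1 array gave 0 throughout. Few of all 15037 genes passed either, at most 30 (trend and robust estimation) and 0 with the replicate block. Without TMAO replicate 1 it was 2 of all genes, and 0 with any other array left out. The 0 of 8 is therefore no trait of these genes. The Soat2 difference kept its sign in every alternative in which it was tested and ran from 0.69 to 1.23. Its limma adjusted p ran from 0.250 (trend and robust estimation) to 0.999 (without Control replicate 2, where each of the 8 genes had that value). With the replicate block the Soat2 difference was 1.04, with a limma adjusted p of 0.476, and the block moved no count of calls among the 8 genes. Soat2 was the 1 gene past an unadjusted p of 0.05. The count was 0 when only genes at or above the median signal were tested, because Soat2 lies below it. With 1 array left out it ran from 1 to 2, the 2 being without Control replicate 3, where Dgat2 joined at an unadjusted limma p of 0.0145. The Dgat1 difference turned to 0.038 with array weights and to 0.058 without TMAO replicate 3, and with 1 array left out it ran from -0.13 to 0.058. That of Dgat2 turned to -0.029 without Control replicate 2 and ran up to 0.46 without Control replicate 3. With 1 array left out, the shift of Soat2 minus Soat1 ran from 0.45 to 1.13, that of Dgat2 minus Dgat1 from 0.040 to 0.48 and that of Plin2 minus Plin5 from -0.10 to 0.19. The last turned its sign without TMAO replicate 3 (-0.10) and without Control replicate 3 (-0.011). Apart from the effect of the signal filter on the count, the cause was not tested. Signals near background limit what can be said of the size of the Soat2, Gpat3 and Fgf21 differences.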

Other observations

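Some lipid and liver genes had signals far from what their roles would lead a reader to look for. Fabp1, an abundant fatty acid binding protein of liver, averaged 3.58 in Control and 3.20 under TMAO, below the negative control median of 3.96. Cps1, the first enzyme of the urea cycle, averaged 4.85 and 5.12. Cidea, a droplet fusion protein best known from brown fat, averaged 9.14 in Control and 9.14 under TMAO. Cidec, its relative from white fat, averaged 7.85 in Control and 7.76 under TMAO. Of 6 measured adipocyte markers, Cidec among them, 4 averaged less than 1 log2 unit above the negative control median. Adipoq, 1 of those 4, averaged 3.70 in Control and 3.42 under TMAO. The deposited values do not show whether these signals follow the transcripts or the probe sets.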
